A study of Rattus norvegicus with 6 samples.

Results

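The genes described here are 9 genes of pigment cells and of the retinal pigment epithelium (RPE), read in RNA from the neural retina of rats: Tyr, Tyrp1, Dct, Mitf, Slc45a2, Gpr143, Best1, Ttr and Ptgds. They were chosen by name, as rows of the deposited gene table whose symbol equals one of these names in any case, and each name matched exactly 1 row, so the set is 9 of 26406 rows. The study used postnatal day 60 retinas in 3 groups of 2 samples: Royal College of Surgeons (RCS) rats with a subretinal injection of human neural progenitor cells (hNPCs), RCS rats with sham surgery, and Long Evans rats with sham surgery. Surgery was done at postnatal day 21 in all groups, and sham eyes received the carrier medium. RCS rats carry a photoreceptor degeneration, and Long Evans rats are a pigmented strain used as the wild type. The labels do not state the coat or eye colour genotype of the RCS animals, nor whether each sample is a separate animal. Only the neural retina was to be taken, and of it the region that faced the graft or, in sham eyes, the corresponding region.

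The deposited table has a single FPKM per gene (fragments per kilobase of transcript, a level scaled to transcript length and to sequencing depth) with a lower and an upper bound, and no column names a sample. No group can therefore be set against another, no p-value is given, and the values compare genes with one another in 1 library or 1 pool of libraries. If a bound lies 2 standard errors from the value and reflects counting error, each value corresponds to a number of fragments. All 37 rows of the mitochondrial genome, whose genes every cell uses, are listed at 0, so a gene listed at 0 in this table need not be unexpressed. These implied fragments are given beside the levels, and they were within 0.02 of a whole number for 8 of the 9 genes. Intervals of ratios are exact 95% binomial intervals on the implied fragments, and they cover counting error only, not the spread between animals. In RNA of a whole tissue piece, fewer cells of a type and less RNA per cell cannot be told apart.

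Melanin is made in melanosomes, organelles related to lysosomes, in melanocytes of neural crest origin and in the epithelia of the eye that derive from the optic cup. Tyrosinase (Tyr) starts the pathway by oxidizing tyrosine. Dopachrome tautomerase (Dct) and tyrosinase-related protein (Tyrp1) act on later intermediates. Mitf is the transcription factor that turns on these enzymes in pigment cells, through a DNA element known as the M-box, which has CATGTG at its core. Slc45a2 is a melanosome membrane transporter, Gpr143 is a G protein-coupled receptor of the melanosome membrane, Best1 is a calcium-activated chloride channel of the basolateral RPE membrane, Ttr (transthyretin) carries thyroxine and retinol-binding protein, and Ptgds is a lipocalin-type prostaglandin D synthase. The RPE lies against the outer face of the neural retina and is normally separated from it in dissection.

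The promoters of the melanin genes are shown first because 4 of them share 1 run of bases. RefSeq windows of assembly GRCr8, from 250 bases before to 50 bases after the annotated start, were matched for 8 of the 9 genes, all but Slc45a2. The longest run common to the windows of the 3 melanin enzymes, on either strand, was the 10-base GTCATGTGCT, which contains TCATGTG and the M-box core CATGTG. The windows lie in GRCr8 at chr1:150622808-150623107 on the minus strand for Tyr, chr5:100326875-100327174 on the plus strand for Tyrp1, chr15:101507980-101508279 on the minus strand for Dct and chrX:25498351-25498650 on the plus strand for Gpr143. Each is written 5′ to 3′ along the gene's own strand, with the shared run in capitals; in Gpr143 it lies on the opposite strand and reads AGCACATGAC.
Tyr: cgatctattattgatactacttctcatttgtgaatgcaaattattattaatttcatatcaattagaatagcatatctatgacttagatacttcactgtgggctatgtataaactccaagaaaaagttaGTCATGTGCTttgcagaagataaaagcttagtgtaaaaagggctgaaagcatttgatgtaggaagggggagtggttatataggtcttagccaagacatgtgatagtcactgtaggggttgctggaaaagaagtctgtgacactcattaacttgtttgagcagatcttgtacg
Tyrp1: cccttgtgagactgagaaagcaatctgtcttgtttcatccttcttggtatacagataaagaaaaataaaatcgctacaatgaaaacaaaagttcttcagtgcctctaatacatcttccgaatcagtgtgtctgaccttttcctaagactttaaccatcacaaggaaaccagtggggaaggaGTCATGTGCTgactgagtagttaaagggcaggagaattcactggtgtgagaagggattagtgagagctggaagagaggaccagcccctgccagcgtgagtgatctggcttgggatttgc
Dct: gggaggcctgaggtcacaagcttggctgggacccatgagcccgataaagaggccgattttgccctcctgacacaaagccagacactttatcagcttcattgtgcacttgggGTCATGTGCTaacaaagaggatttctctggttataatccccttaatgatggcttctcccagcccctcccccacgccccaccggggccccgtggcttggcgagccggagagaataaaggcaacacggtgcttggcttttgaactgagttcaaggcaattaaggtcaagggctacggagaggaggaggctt
Gpr143: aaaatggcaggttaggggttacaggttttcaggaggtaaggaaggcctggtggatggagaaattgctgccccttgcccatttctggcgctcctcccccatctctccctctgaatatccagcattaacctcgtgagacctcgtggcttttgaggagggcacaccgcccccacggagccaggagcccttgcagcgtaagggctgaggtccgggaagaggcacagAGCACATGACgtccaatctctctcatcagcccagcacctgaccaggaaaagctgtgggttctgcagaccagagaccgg

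The run began 122 bases upstream of the annotated start in Tyr, 69 in Tyrp1, 139 in Dct and 28 in Gpr143. The matches in the 3 enzymes follow from how the run was found; the match in Gpr143 does not. Over all 33469 promoter windows of the same length, 22 held the run on either strand, a share of 0.0657%. The 7-base TCATGTG was in 3.56% of windows and the core CATGTG in 13.97%. Tyr had a second CATGTG, beginning 27 bases upstream. Best1 had CATGTG alone, from base 33 after the start. The windows of Mitf, Ttr and Ptgds held none of the 3 motifs, searched on both strands. A match is a stretch of letters; no binding was measured.

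**Figure D1:**
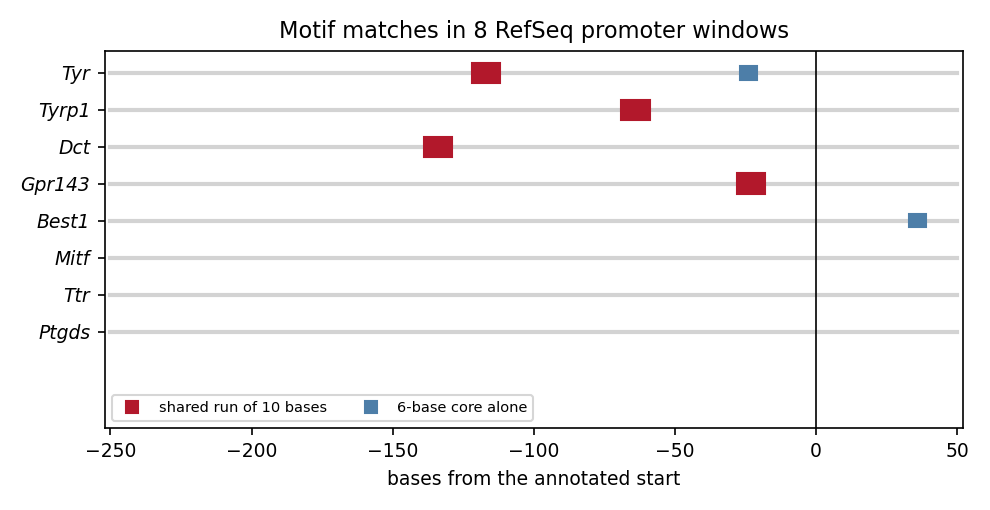
Each grey line is the RefSeq promoter window of a gene, in bases from the annotated start (0); red blocks mark the shared run of 10 bases, and blue blocks mark the 6-base core outside it, on either strand. Tyr, Tyrp1, Dct and Gpr143 hold the run, at 122, 69, 139 and 28 bases upstream, and Mitf, Ttr and Ptgds hold neither.

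The levels of the 9 genes spread from 0.0576 FPKM for Gpr143 to 152 FPKM for Ttr. Their median was 1.62 FPKM, beside 3.17 FPKM over all 19623 symbols of the table. At 1 FPKM or more stood 5 of the 9 genes (Ttr, Ptgds, Tyrp1, Dct and Mitf), against 61.0% of all symbols. At 10 FPKM or more stood 4, against 28.9% of symbols, and at 100 FPKM or more stood 2, against 1.79%. Together the 9 genes held 0.0838% of the summed FPKM. Ttr and Ptgds made up 89.0% of that sum, and without them the other 7 genes held 0.00918% of the table. The count at 1 FPKM is thus close to that of any symbol, and the sum rests on the secreted proteins.

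**Figure D2:**
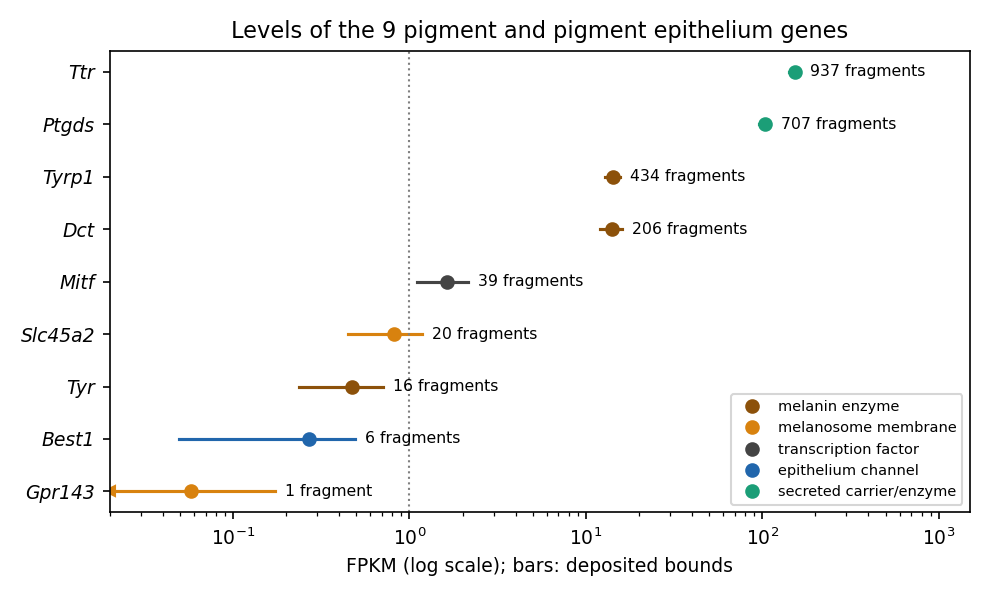
Points give the deposited FPKM of each gene on a log axis, bars the deposited bounds (the arrow marks a lower bound of 0), and the text beside each the implied fragments; the dotted line is 1 FPKM. Ttr and Ptgds stand above 100 FPKM, Tyrp1 and Dct near 14 FPKM, and Slc45a2, Tyr, Best1 and Gpr143 below 1 FPKM.

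The 3 melanin enzymes did not stand at 1 level. Tyrp1 (ENSRNOG00000029318, chromosome 5, 102430674 to 102449645; this and all row positions are in build rn5) was at 14.2 FPKM, with deposited bounds of 12.8 and 15.6 and 434 implied fragments. Dct (ENSRNOG00000008671, chromosome 15, 106648825 to 106680979) was at 14.0 FPKM, with bounds of 12.0 and 15.9 and 206 fragments. Tyr (ENSRNOG00000016421, chromosome 1, 157322968 to 157416594), the enzyme of the first step, was at 0.471 FPKM, with bounds of 0.238 and 0.705 and 16 fragments. Tyrp1 and Dct could not be told apart, their ratio being 1.02 with an interval of 0.858 to 1.20. Both stood far above Tyr: Tyrp1 was 30.1 times Tyr (18.3 to 53.2) and Dct was 29.7 times Tyr (17.8 to 52.9). In implied fragments, not divided by length, Tyrp1 was 2.11 times Dct and Dct was 12.6 times Tyr. Tyrp1 and Dct lay at percentiles 78.7 and 78.4 of all symbols, and Tyr at percentile 33.9. All 3 promoters hold the 10-base run printed above. Tyr was the gene whose implied number was not whole, lying 0.333 from 16 fragments.

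Among the melanosome membrane genes, Slc45a2 (ENSRNOG00000018759, chromosome 2, 83685368 to 83717569) was at 0.815 FPKM, with bounds of 0.450 and 1.18 and 20 fragments. Gpr143 (ENSRNOG00000003543, chromosome X, 24084931 to 24109730) was at 0.0576 FPKM, with bounds of 0 and 0.173, which corresponds to 1 fragment. Slc45a2 could not be told apart from Tyr, at a ratio of 1.73 (0.851 to 3.57). Tyr was 8.18 times Gpr143, with an interval of 1.27 to 343 that is wide because 1 fragment stands on the Gpr143 side. Gpr143, whose promoter holds the 10-base run too, was thus the lowest of the 9 genes.

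Of the other Slc45 genes, a family related to sugar transporters, Slc45a1 and Slc45a4 stood higher. Slc45a2 was 0.231 times Slc45a1 (0.135 to 0.376) and 0.208 times Slc45a4 (0.122 to 0.338). Slc45a1 was at 3.53 FPKM, Slc45a4 at 3.91 FPKM and Slc45a3 at 0.0799 FPKM with 3 fragments. The family median of these 3 was 3.53 FPKM, and 2 of them reached 1 FPKM (66.7%, near the 61.0% of all symbols).

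The other pigment cell genes were a mixed set. Of 8 listed, 6 reached 1 FPKM (75%, against 61.0% of all symbols), and 1 was listed at 0. The median was 1.70 FPKM, below the 3.17 FPKM of all symbols. Pmel, the amyloid protein of melanosome fibrils, was at 4.94 FPKM (bounds 3.89 to 5.99, 89 fragments), so that Tyr was 0.0954 times Pmel (0.0523 to 0.164) and Tyrp1 was 2.88 times Pmel (2.28 to 3.65). Mlana, a melanosome biogenesis protein, was at 1.74 FPKM (0.734 to 2.74), and Tyr was 0.271 times Mlana (0.120 to 0.629), a direction that turns to 1.36 times in implied fragments, which are not divided by length. Slc24a5, a cation exchanger of the melanosome pathway, was at 1.56 FPKM (0.823 to 2.29), and Slc45a2 could not be told apart from it, at 0.523 times its level (0.263 to 1.05). Oca2, a melanosome membrane transporter gene, was at 0.0664 FPKM, with 2 fragments, and Tyr was 7.10 times Oca2 (1.67 to 63.6). Gpnmb, a Pmel relative also made by macrophages, was at 1.66 FPKM (1.15 to 2.17). The receptor gene Mc1r was listed at 0. The highest of the list, Trpm1 at 60.8 FPKM (58.8 to 62.9), encodes a melanocyte channel that ON bipolar cells of the retina also use, and Slc7a11, a cystine transporter, was at 3.94 FPKM (3.56 to 4.32).

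Most melanosome transport genes serve other organelles too, and most of those measured stood above Tyr. The 24 measured genes for melanosome transport and lysosome-related organelles ranged from 0.152 to 46.4 FPKM around a median of 5.38 FPKM. At 1 FPKM or more stood 21 (87.5%, against 61.0% of all symbols). The highest were Mreg (melanoregulin) at 46.4 FPKM (40.5 to 52.2) and the adaptor subunit gene Ap3d1 at 37.1 FPKM (35.5 to 38.8). The lowest was the channel gene Tpcn2, at 0.152 FPKM with 5 fragments. Rab38, a small GTPase that delivers Tyr and Tyrp1 to melanosomes, was at 0.337 FPKM with 5 fragments, and its relative Rab32 at 1.66 FPKM with 38. Both were named after their values were seen.

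Mitf (ENSRNOG00000008658, chromosome 4, 194667979 to 194918737) was at 1.62 FPKM, with bounds of 1.10 and 2.14 and 39 fragments, at percentile 43.0 of all symbols. Its targets Tyrp1 and Dct stood above it, Dct at 8.61 times Mitf (6.09 to 12.5), while its target Tyr stood below. Mitf was 0.223 times its relative Tfe3 (0.147 to 0.334), 0.550 times Tfeb (0.363 to 0.820) and 0.114 times Usf1 (0.0794 to 0.160), another factor that binds E-boxes. Tfe3 was at 7.29 FPKM, Tfeb at 2.95 FPKM and Usf1 at 14.2 FPKM, and Tfec, the relative found in the RPE and in macrophages, was listed at 0. Mitf was 0.00904 times Otx2 (0.00642 to 0.0124), a homeobox gene that acts with Mitf in the RPE and is also used by photoreceptors and bipolar cells. Otx2 was at 179.7 FPKM summed over 2 neighbouring rows, of 108.8 and 70.9 FPKM. Its relative Otx1 was at 2.55 FPKM, and Pax6, Ctnnb1 and Creb1, which act broadly, were at 97.1, 82.3 and 7.14 FPKM. Of the neural crest factors upstream of Mitf, Sox10 was at 0.575 FPKM (0.318 to 0.832, 20 fragments), Lef1 was at 0.246 FPKM with 3 fragments, and Pax3 was listed at 0. The median of the 12 genes was 5.04 FPKM, and 8 were at 1 FPKM or more (66.7%, near the 61.0% of all symbols).

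Of 7 signalling genes of melanocytes, 4 reached 1 FPKM (57.1%, near the 61.0% of all symbols). Their median was 2.22 FPKM and their highest level 4.28 FPKM. The ligand gene Kitlg was at 4.28 FPKM (3.53 to 5.04) and its receptor Kit at 2.27 FPKM (1.82 to 2.72). The endothelin receptor Ednrb was at 3.22 FPKM (2.45 to 3.98), its ligand Edn3 at 0.152 FPKM with 1 fragment, and the hormone precursor Pomc at 2.22 FPKM (1.23 to 3.22). Mc1r and its antagonist Asip were both listed at 0.

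**Figure D3:**
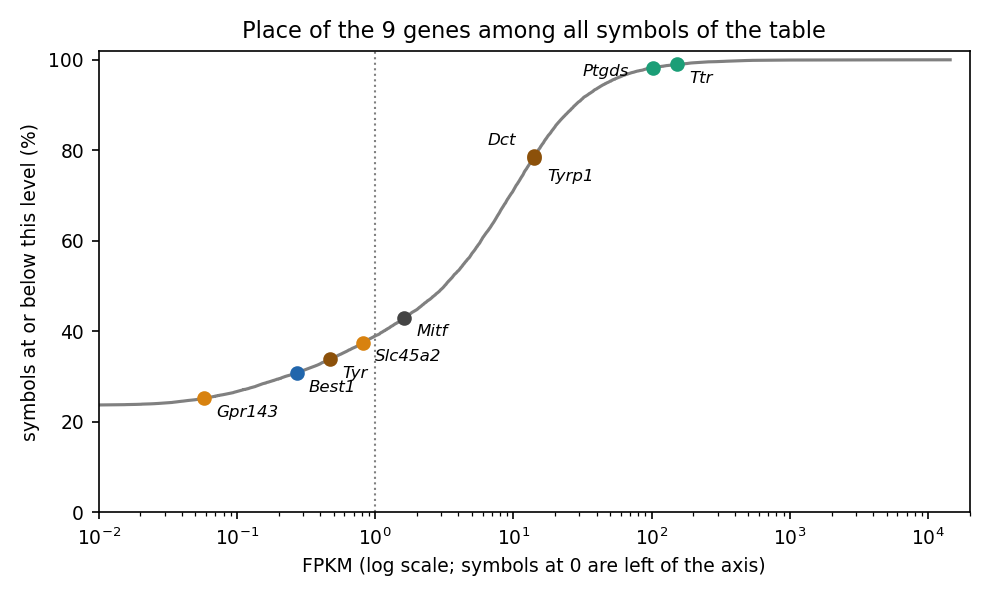
The grey curve gives, for each FPKM on a log axis, the percentage of all symbols at or below it, and points mark the 9 genes, coloured by role as in the plot of their levels. Ttr and Ptgds lie above the 98th percentile, Tyrp1 and Dct near the 78th, and the other 5 between percentiles 25.2 and 43.0.

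Best1 (ENSRNOG00000020346, chromosome 1, 232981480 to 232998041) was at 0.270 FPKM, with bounds of 0.0495 and 0.490 and 6 fragments. It was low beside other RPE genes in the same table. Best1 was 0.0131 times Rpe65 (0.00477 to 0.0286), whose product is the retinoid isomerase of the RPE and which was at 20.7 FPKM. It was 0.0467 times Kcnj13 (0.0166 to 0.107), a potassium channel of the apical RPE membrane at 5.78 FPKM. Other bestrophins stood above it. Best1 was 0.0355 times Best2 (0.0128 to 0.0788), which was at 7.61 FPKM, and 0.0864 times Best3 (0.0310 to 0.194), at 3.12 FPKM. Best4 was listed at 0. Among other chloride channel genes, Ano2, which photoreceptor terminals use, was at 56.9 FPKM, Clcn2 was at 4.42 FPKM summed over 2 distant rows, Ano1 was at 1.41 FPKM, and Cftr was listed at 0. The median of these 7 genes other than Best1 was 3.12 FPKM. At 1 FPKM or more stood 5 of them (71.4%, against 61.0% of all symbols).

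The Best1 value carries a limit of its annotation. It was the only one of the 9 genes whose span overlaps other rows: the row of Fads2 (15.6 FPKM) spans 232857120 to 233097150 and so contains Best1, and an unnamed row, ENSRNOG00000036633, lies within Best1 at 1.08 FPKM with 5 fragments. The ferritin gene Fth1, at 152.9 FPKM, ends 70 bases away. How fragments were divided among these rows is not given in the sources used here, and the part of this overlap in the low Best1 value was not tested.

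Ttr (ENSRNOG00000016275, chromosome 18, 15307563 to 15314777) was the highest of the 9, at 152 FPKM, with bounds of 142 and 162 and 937 fragments. It ranked 201 of 19623 symbols, at percentile 98.98. Ptgds (ENSRNOG00000015550, chromosome 3, 2667538 to 2670472) was at 103 FPKM, with bounds of 95.3 and 111 and 707 fragments, at rank 339. Ttr was 1.48 times Ptgds (1.34 to 1.63), and Ptgds was 7.26 times Tyrp1 (6.43 to 8.20). Both are also made outside the eye, by the choroid plexus and, for Ptgds, the meninges, and both stood above Rpe65. Ttr was 7.38 times Rpe65 (6.61 to 8.25) and Ptgds was 4.99 times Rpe65 (4.44 to 5.61). In implied fragments, not divided by length, Ttr was 1.92 times Rpe65. Ptgds was then 1.45 times Rpe65 and 1.63 times Tyrp1. By FPKM, Tyrp1 was 0.687 times Rpe65 (0.603 to 0.784) and Tyr was 0.0228 times it (0.0129 to 0.0374).

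**Figure D4:**
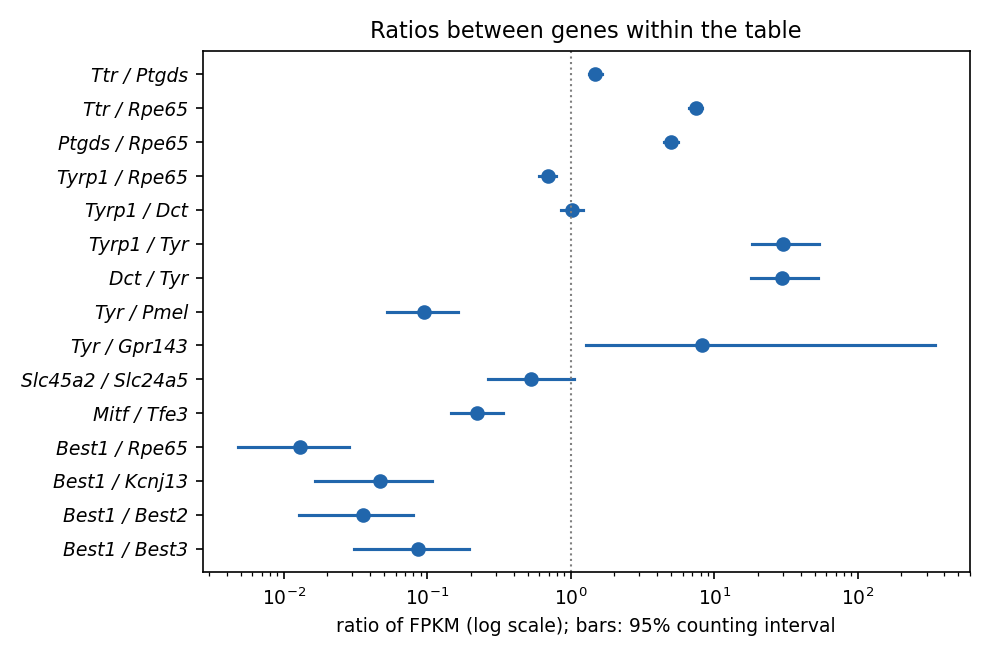
Points are ratios of the FPKM of the genes named at the left, on a log axis, and bars are 95% counting intervals; the dotted line marks equal levels. Tyrp1 and Dct straddle 1, each is about 30 times Tyr, and the 4 ratios of Best1 all lie below 0.2.

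Partners of Ttr and of Ptgds were measured in the same table. Rbp4, the retinol-binding protein that Ttr carries, was at 7.04 FPKM (5.25 to 8.83), and Ttr was 21.6 times Rbp4 (16.7 to 28.5). The thyroid hormone receptors Thra and Thrb were at 51.6 and 13.6 FPKM, and Crym, which binds thyroid hormone inside cells, was at 98.1 FPKM. The transporter gene Slco1c1 was at 6.42 FPKM, the retinol receptor Stra6 was at 3.15 FPKM, and Alb, which also carries thyroxine in blood, was listed at 0. The median of the 9 measured genes of thyroxine and retinol handling was 7.04 FPKM. At 1 FPKM or more stood 7 (77.8%, against 61.0% of all symbols).

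Genes of the enzymes that supply the substrate of Ptgds stood below the median of all symbols. The cyclooxygenase genes Ptgs1 and Ptgs2 were at 0.629 FPKM (0.348 to 0.911) and 0.934 FPKM (0.593 to 1.28), and the phospholipase gene Pla2g4a was at 1.20 FPKM. The blood-cell prostaglandin D synthase gene Hpgds and the prostaglandin D receptor genes Ptgdr and Ptgdr2 were listed at 0. Ptgds was 2.18 times Ptges3 (1.97 to 2.41), a co-chaperone also named as a prostaglandin E synthase, but 0.833 times it in implied fragments. Ptgds was 9.23 times Ptges2 (7.99 to 10.7), or 2.79 times in implied fragments. Ptges3 was at 47.3 FPKM, and Cbr1, a carbonyl reductase, summed to 44.6 FPKM over 3 rows that may share reads. The median of the 19 prostaglandin and lipocalin genes was 0.629 FPKM. At 1 FPKM or more stood 8 (42.1%, against 61.0% of all symbols), and 4 had no FPKM above 0.

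Genes of the RPE and of other tissues and cell types were read beside the 9. The 25 genes of the RPE list ranged from 1.20 to 390 FPKM around a median of 9.88 FPKM. All were thus at 1 FPKM or more, against 61.0% of all symbols. The highest, Bsg at 390 FPKM and Rdh11 at 149.99 FPKM, are also made by the neural retina, as is Rlbp1 at 114 FPKM, which is on the Müller glia list too. Genes of the list known best from the RPE were lower: Rrh at 29.5 FPKM, Rgr at 24.0, Rdh5 at 5.35, Slc16a8 at 4.28, Cldn19 at 4.20, Lrat at 3.94 and Stra6 at 3.15, named after their values were seen. Slc45a2, Tyr, Best1 and Gpr143 thus stood below every member of the RPE list, while Ttr, Ptgds, Tyrp1, Dct and Mitf stood within its range. Whether RPE cells came with the neural retina was not tested.

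The 11 choroid plexus and meninges genes ranged from 0.223 to 31.4 FPKM around a median of 7.77 FPKM. At 1 FPKM or more stood 8 (72.7%). The share over all symbols, for this list and the next ones, was 61.0%. Aqp1, a water channel, was at 31.4 FPKM and Enpp2, which makes lysophosphatidic acid, at 22.2 FPKM. Choroid stroma and fibroblast genes were low. Their median was 0.303 FPKM, and 1 of 6 was at 1 FPKM or more (16.7%). The receptor gene Pdgfra was at 3.08 FPKM and the matrix gene Dcn at 0.978 FPKM, with the collagen genes Col1a1, Col1a2 and Col3a1 at 0.145 to 0.321 FPKM. Schwann cell and myelin genes had a median of 0.664 FPKM, with 2 of 5 at 1 FPKM or more (40%). Pmp22, a myelin protein gene of Schwann cells, was at 7.53 FPKM. The 7 endothelial and pericyte genes were all at 1 FPKM or more (100%), around a median of 1.91 FPKM. Kdr at 52.2 FPKM and Rgs5 at 27.1 FPKM were highest, and the others of this list lay between 1.00 and 3.75 FPKM. Of 4 blood genes, 2 reached 1 FPKM (50%), Hbb at 13.2 FPKM and Hba1 at 10.3 FPKM. Their median was 5.27 FPKM, and Alas2 was listed at 0.

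The labelled tissue was checked on its own markers. The 6 rod genes had a median of 2134 FPKM, led by Gngt1 at 6641 FPKM and Gnat1 at 6316 FPKM, and the 6 Müller glia genes a median of 101 FPKM, led by Glul at 617 FPKM and Dkk3 at 318 FPKM. Against the rod transducin gene Gnat1, the level of Ttr was 0.0241 times as high (0.0226 to 0.0257) and that of Tyrp1 was 0.00225 times (0.00204 to 0.00247).

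**Figure D5:**
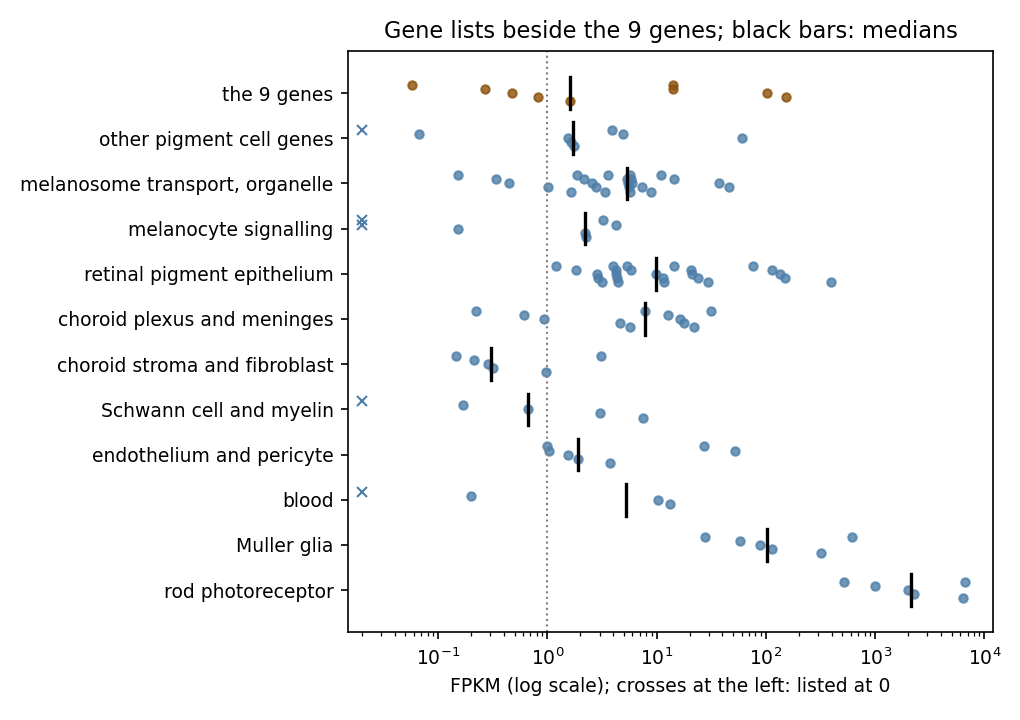
Each point is a gene of the list named at the left, by its FPKM on a log axis, crosses at the left edge are genes listed at 0, black bars are list medians, and the dotted line is 1 FPKM. The 9 genes span from 0.0576 to 152 FPKM and the RPE list from 1.20 to 390 FPKM, while 5 of the 6 choroid stroma and fibroblast genes lie below 1 FPKM and the rod genes lie at 518 FPKM or more.

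In order of level the 9 genes ran Ttr, Ptgds, Tyrp1, Dct, Mitf, Slc45a2, Tyr, Best1 and Gpr143. Of the 8 steps between neighbours, 4 had intervals that held equal levels: Tyrp1 to Dct, Slc45a2 to Tyr, Tyr to Best1 at 1.75 (0.649 to 5.45), and Best1 to Gpr143 at 4.68 (0.568 to 215). The other 4 steps had intervals above equal levels, among them Mitf at 1.99 times Slc45a2 (1.14 to 3.61). With 1 value per gene no gene can be named as similar in pattern across samples. The order was the same by implied fragments. The grafted cells were human, and whether human fragments were counted in these rat rows was not tested.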

How the data were processed

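Retinal RNA of 6 rat samples was sequenced; per the labels' protocols, the library kit was Ion Total RNA-seq. The authors deposited 1 gene table in the format of Cufflinks with FPKM values and bounds, per the file headers; the submitters' processing notes name Cufflinks 2.0.8 and build rn5. The sources used here do not give the aligner, annotation release, bound level or any pooling. Ratios of FPKM, implied fragments (6124332 over all rows) and medians were computed from the deposited values with scipy 1.17.1, pandas 2.3.3 and numpy 2.4.6 under Python 3.11.15. Implied fragments take the bounds as 2 standard errors; 69.6% of rows with up to 200 were within 0.02 of whole. Rows that share a symbol in any case were summed, giving 19623 symbols. Of 167 listed genes in 17 lists, 158 matched exactly, 6 in another case and 3 not at all. Starts were counted from 0 in the table (spans were multiples of 3 for 98.1% of 1073 olfactory receptor rows) and are printed from 1. The promoter sequences are from RefSeq (GRCr8) and share no coordinates with rn5. The genes and lists were chosen with earlier results of these data known. The text names all 9 genes, Rpe65, the 2 highest of each list, all genes of 5 small lists and genes that overlap the 9; any other gene named was chosen after its value was seen, and 4 genes are not reported here. The planned limma fit was not run, since no value is tied to a sample. Calculations were tested on simulated data. The simulated bounds were made with the formula that is then inverted, so this checks the code and not how the deposited bounds were made. Alternatives were other minima, scalings, matches and bound widths.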

Additional observations from a re-analysis of the deposited data

How the results depend on the processing

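No paired analysis was possible because there is 1 FPKM per gene and no sample name beside it, and no library could be left out. Of 182 recomputed values, 135 stayed within the limit set for their kind, 45 moved past it and 2 reversed. Some of these outcomes were fixed by the setting, so the tally does not measure robustness. Keeping the highest row cannot change a gene with 1 row. Another bound width changes the interval of a ratio but not the ratio. Rescaling multiplies every level by the same factor, while the bounds it was compared with stayed as deposited. The limit was the counting interval for levels, ratios and the summed share, the same side of 1 for ratios under another bound width, the same order for ranks, and 1.5 times for counts and list medians. On the TPM scale, where all rows are brought to a fixed sum, the median of the 9 genes was 4.75. With implied fragments, which are not divided by length, Ttr to Ptgds was 1.33, Tyrp1 to Dct 2.11 and Dct to Tyr 12.6, and the ratios of Tyr to Mlana (1.36) and Ptgds to Ptges3 (0.833) reversed; these numbers grow with transcript length. The order of the 9 genes did not change under implied fragments. Each of the 9 has 1 row, so keeping the highest row per symbol could not change it. A minimum of 0.5 FPKM gave 6 of the 9 and 5 FPKM gave 4; at 5 FPKM, 15 RPE list genes and 1 other pigment cell gene remained at the minimum. The share of all symbols at 0.5 and 5 FPKM was not computed, so these counts cannot be set against that of any symbol. The share of the 9 genes was 0.0907% without rows spanning under 300 bp and 0.00918% without Ttr and Ptgds. With bounds read at the slightly smaller multiple of a normal 95% interval, none of the 36 ratios changed its side of 1. With the highest row of Otx2 alone (added after seeing the data), Mitf to Otx2 was 0.0149. Shorter motifs, also added, were in 4 (TCATGTG) and 5 (CATGTG) of the 8 promoters. Both lie within the 10-base run, so neither count could fall below 4. Over all windows their shares were 3.56% and 13.97%. Depth limits Gpr143, Best1, Tyr and Slc45a2, which rest on 1, 6, 16 and 20 implied fragments.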

Other observations

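All 22 promoter windows with the run GTCATGTGCT were listed with the FPKM values already known. They belong to 21 symbols, of which 12 are in the FPKM table, among them Tyr, Tyrp1, Dct and Gpr143. Of the 12, 7 reached 1 FPKM (58.3%), with a median of 1.93 FPKM, beside 68.4% and 4.72 FPKM over the 12970 symbols with a promoter window. Outside the pigment genes the highest were Rpl34, a ribosomal protein gene, at 479.5 FPKM, Mbnl2, a splicing regulator, at 43.1 FPKM and Fubp3 at 12.2 FPKM. C1qb, a complement gene of microglia, was at 1.67 FPKM, and S1pr4 and Nxf7 were listed at 0. Of the listed genes other than the 9, Mlana, Gpnmb, Kcnj13 and the rod phosphodiesterase gene Pde6b held the 7-base TCATGTG and not the longer run, at 1.74, 1.66, 5.78 and 517.6 FPKM. For comparison, 126 listed genes, those of the 9 included, had a promoter window, and TCATGTG was in 3.56% of all windows. Whether the listed genes differ from that share was not tested.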
